A study of Mus musculus with 2 samples.

Results

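The genes described here encode connexins and proteins of the intercalated disc: Gja1, Gja5, Gjc1, Dsp, Pkp2, Jup, Dsg2, Dsc2, Cdh2 and Ctnna3. The 10 members were chosen by name from the 24346 gene symbols that both libraries list, all 10 had a value, and all 10 passed the filter of a mean of at least 0.5 FPKM (fragments scaled to transcript length and to library size). RNA sequencing was done on mouse heart tissue that had been kept in an RNA preservative and frozen. The probucol group is 1 library from an animal or animals treated with probucol, a cholesterol-lowering antioxidant, and the untreated group is 1 library without the drug. Both carry the HFD-MI label, a high-fat diet with myocardial infarction, and an age label of day 14, with no mention of what the days are counted from. Genotype, strain, sex, the number of animals behind each library and the part of the heart taken are not stated in the labels used. The headers of the deposited values carry the marks HypoE and CM, which could name a genotype and a tissue or cell type but are not explained there and were not interpreted. The title of the study names XCR1+ dendritic cells, T helper 1 activation and remodelling after infarction, so the comparison bears on how the coupling and anchoring genes of heart muscle differed between the treated and the untreated heart.

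The intercalated disc joins heart muscle cells end to end. Gap junctions, channels built from connexins, pass current between the cells, desmosomes tie their intermediate filaments together, and adherens junctions anchor their actin filaments. In the mammalian heart desmosomal and adherens proteins also mix in a hybrid structure, the area composita. Variants of desmosomal genes are a known cause of arrhythmogenic cardiomyopathy in humans, and loss or displacement of connexin 43 at the border of an infarct is a known feature of arrhythmia models.

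With 1 library per group no difference has a replicate check, and no test between the treatments was possible. The low values show what 1 fragment adds to a transcript with an effective length of 1 kb, namely 0.149 FPKM with probucol and 0.134 FPKM without. Fragment numbers of the members were estimated from these steps, and the exact binomial (Clopper-Pearson) 95% intervals of the plain FPKM ratios, called counting intervals below, cover counting error only. A log2 ratio is log2((FPKM probucol + 0.5)/(FPKM untreated + 0.5)), which understates the difference of low genes. Heart muscle transcripts were abundant in both libraries, with Myh6, the adult myosin heavy chain, at 4461 FPKM with probucol and 3015 FPKM without. The markers of epithelium, where desmosomes are also plentiful, summed to 1.48 FPKM with probucol and 3.50 FPKM without over 7 genes, and Krt5, Krt14 and Cldn4 were listed at 0 in both.

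The most abundant member, Gja1, had nearly the same level in both libraries, Dsp was the highest relative to the untreated library, and Gjc1 the lowest. Of the 10 members 8 had a log2 ratio above 0, against 50.9% of the 12882 measured genes, and their median was 0.14, against 0.01 for all measured genes. At least 1.5-fold higher with probucol were 0 members, against 5.52% of measured genes, and at least 1.5-fold lower were 0 members, against 12.0%. When ratios were centred on 20 structural genes of heart muscle, 0 members were at least 1.5-fold higher, against 0.986% of measured genes. At least 1.5-fold lower on that scale was 1 member, Gjc1, against 34.0% of measured genes. On the deposited scale Gjc1 lay just inside the limit, at 1.49-fold lower. In bulk tissue fewer cells of a type and less RNA per cell cannot be told apart. The counting interval of the ratio lay apart from 1 for 5 members, Gjc1, Dsp, Pkp2, Dsg2 and Cdh2, and included 1 for the other 5. It lay apart from 1 for 40.0% of the 11544 measured genes with a transcript longer than 800 bases, since at high fragment numbers small differences pass.

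**Figure D1:**
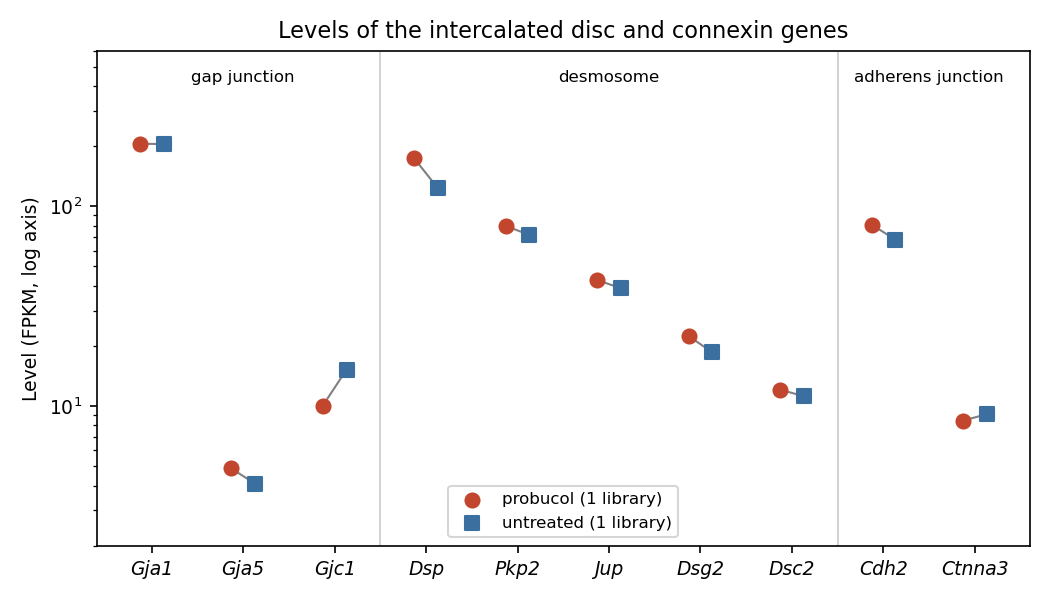
Level of each of the 10 members in FPKM on a log axis, with the probucol library as a circle and the untreated library as a square (1 library each, so no error bars). Levels run between 4.09 and 206 FPKM, the circle of Dsp lies above its square, and that of Gjc1 below.

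The members spanned a wide range of levels. FPKM is scaled per transcript length, so levels can be set side by side between genes. In the probucol library the order from high to low was Gja1, Dsp, Cdh2, Pkp2, Jup, Dsg2, Dsc2, Gjc1, Ctnna3 and Gja5. In the untreated library Pkp2 stood above Cdh2 and Gjc1 above Dsc2, and the other places were the same. Neighbours in this order have no spread over replicates to be judged against. Gja1 exceeded 96.3% of measured genes with probucol and 96.4% without, and Gja5, the lowest member, exceeded 37.8% with probucol and 31.5% without.

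Promoter windows of RefSeq, 250 bases before to 50 after the annotated start in build GRCm38.p6, were matched for 5 of the 10 members, Gja1, Gja5, Dsp, Jup and Ctnna3. Those of 3 members are shown: Gja1, the most abundant and nearly level member, Gja5, the connexin of arteries, atria and the conduction system, and Dsp, the member with the highest ratio. All lie on the plus strand, at chr10:56377050-56377349 for Gja1, chr3:97032152-97032451 for Gja5 and chr13:38151044-38151343 for Dsp. Capitals mark matches on either strand to GGGCGG, the core letters bound by Sp1, or to TGANTCA, those bound by AP-1.
Gja1: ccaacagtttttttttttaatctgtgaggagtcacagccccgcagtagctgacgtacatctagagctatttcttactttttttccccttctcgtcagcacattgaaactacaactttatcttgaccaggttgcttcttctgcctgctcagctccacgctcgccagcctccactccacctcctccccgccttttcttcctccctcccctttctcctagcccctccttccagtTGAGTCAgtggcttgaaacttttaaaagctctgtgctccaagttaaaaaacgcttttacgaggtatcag
Gja5: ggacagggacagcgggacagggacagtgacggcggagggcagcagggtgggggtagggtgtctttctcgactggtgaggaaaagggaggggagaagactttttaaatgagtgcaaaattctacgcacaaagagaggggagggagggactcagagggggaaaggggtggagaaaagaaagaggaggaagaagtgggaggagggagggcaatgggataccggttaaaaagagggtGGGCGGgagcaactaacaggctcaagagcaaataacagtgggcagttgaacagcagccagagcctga
Dsp: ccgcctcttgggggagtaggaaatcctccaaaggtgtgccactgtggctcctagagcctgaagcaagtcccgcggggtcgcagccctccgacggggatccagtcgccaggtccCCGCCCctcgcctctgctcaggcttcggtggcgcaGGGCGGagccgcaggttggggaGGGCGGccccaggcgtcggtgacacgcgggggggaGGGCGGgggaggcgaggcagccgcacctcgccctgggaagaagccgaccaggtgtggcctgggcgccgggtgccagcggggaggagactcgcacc
The window of Gja1 held 1 AP-1 match, which begins 19 bases upstream of the start, and 0 Sp1 matches. That of Gja5 held 1 Sp1 match, 17 bases upstream, and that of Dsp held 4, which begin 137, 102, 80 and 45 bases upstream. No 2 matches overlap. TGANTCA occurred in 7.81% and GGGCGG in 35.7% of all 32851 windows of the same length. TATAAA, found in 13.6% of them, and CACGTG, found in 7.15%, were not in these 3 windows. The share of G and C was 47.7% for Gja1, 55.7% for Gja5 and 73.0% for Dsp, against a median of 52.7% over all windows. A match is a run of letters and says nothing of binding in these hearts.

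Gja1 encodes connexin 43, the main connexin of working ventricular muscle, which fibroblasts and other cells also make (chromosome 10, 56377300 to 56390419, build mm10). Its level was 206 FPKM with probucol and 205 FPKM without, a log2 ratio of 0.01. These levels rest on an estimated 3941 fragments with probucol and 4377 without, and the counting interval of the ratio, 0.962 to 1.05, stays close to 1. On the deposited scale the levels were thus nearly equal, and 49.8% of measured genes had a lower ratio. Gja1 held 86.7% of the summed FPKM of 20 connexin genes with probucol and 86.0% without.

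Gja5 encodes connexin 40, which couples atrial muscle, the ventricular conduction system and arterial endothelium (chromosome 3, 97032402 to 97053634). It had 4.87 FPKM with probucol and 4.09 FPKM without, a log2 ratio of 0.23 on 95 estimated fragments with probucol and 89 without. The counting interval, 0.882 to 1.61, includes 1, and a difference was not detectable at this depth. Among atrial markers, Myl7, the atrial myosin light chain, and Bmp10 were listed at 0 in both libraries. Sln, the atrial regulator of the calcium pump, had 0.958 FPKM with probucol and was listed at 0 without. Other atrial markers were present in both libraries and higher with probucol. Myl4 had 7.53 FPKM with probucol and 5.75 FPKM without. Kcnj3 had 16.8 FPKM with probucol and 10.5 FPKM without, and Kcnj5 had 24.2 FPKM with probucol and 17.3 FPKM without. All 7 atrial markers summed to 1615 FPKM with probucol and 4039 FPKM without, nearly all of it Nppa, a natriuretic peptide that stressed ventricle also makes (1565 FPKM with probucol and 4005 FPKM without). The 6 arterial endothelial markers summed to 37.6 FPKM with probucol and 36.5 FPKM without, and none was at 0. One GENCODE transcript of Gja5 overlaps an exon of Gpr89 on the opposite strand, and whether the authors' counting used strand is not stated in the labels or headers used.

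Gjc1, which encodes connexin 45 of the pacemaker and conduction system and of vascular smooth muscle, was the member furthest below 0 (chromosome 11, 102799477 to 102819686). It had 10.03 FPKM in the heart given probucol and 15.2 FPKM in the untreated heart, a log2 ratio of -0.58, and 12.1% of measured genes had a lower ratio. Its RefSeq-linked transcripts are 1890 to 2314 bases long, which gives 113 to 141 fragments with probucol and 191 to 239 without. Taken at the smaller numbers, the counting interval was 0.518 to 0.837, which does not reach 1. It passed the 1.5-fold limit with a pseudocount of 0.1 or with equal FPKM totals without the 100 most abundant genes, as did 13.9% and 13.1% of measured genes. Gja1 stood 20.5 times above Gjc1 in FPKM with probucol and 13.5 times above it without. The cell marker lists set beside this gene did not share 1 direction. Median log2 ratios of their measured genes were -0.74 for fibroblasts, -0.04 for smooth muscle and 0.05 for the conduction system. The 6 fibroblast markers all had log2 ratios below 0 and summed to 743 FPKM with probucol and 1175 FPKM without. The 5 smooth muscle markers summed to 121 FPKM with probucol and 131 FPKM without, and the 7 conduction system markers to 21.3 FPKM with probucol and 19.1 FPKM without. None of the fibroblast, smooth muscle or conduction markers was listed at 0. Among the conduction markers Hcn4, the main pacemaker channel, had 1.04 FPKM in both libraries. The part of these cells in the level of Gjc1 was not tested.

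**Figure D2:**
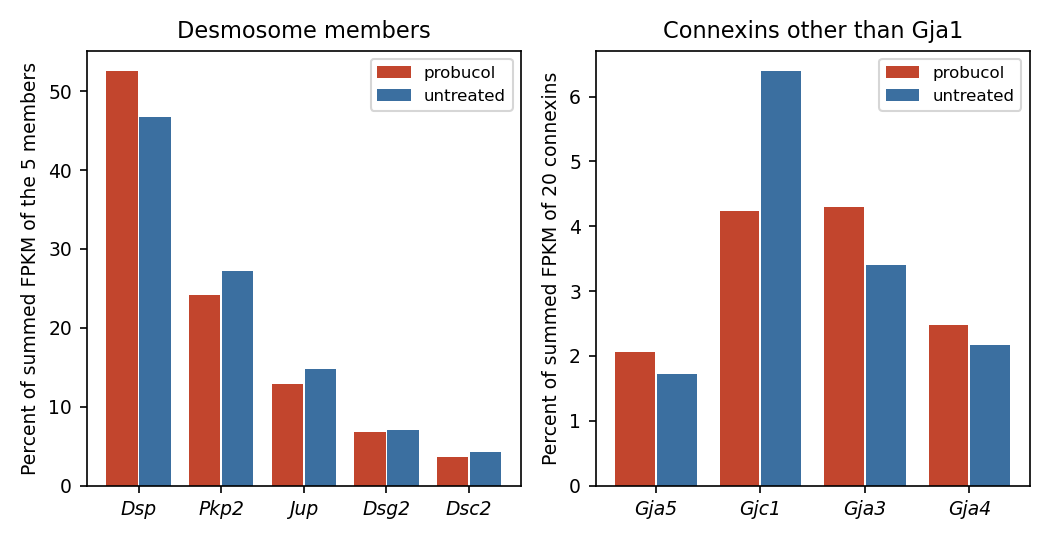
Left, the share of each of 5 desmosome members in their summed FPKM, and right, the share of Gja5, Gjc1, Gja3 and Gja4 in the summed FPKM of 20 connexin genes, both in percent, with the probucol library left of the untreated library in each pair of bars. Dsp takes 52.5% with probucol and 46.7% without, and Gjc1 takes 4.23% with probucol and 6.39% without.

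All 5 desmosome members had log2 ratios above 0 on the deposited scale, between 0.10 and 0.50, while centring on heart muscle structural genes left Dsp above 0 and the other 4 below, with 10.6% of all measured genes above 0. Together they summed to 331 FPKM with probucol and 263 FPKM without. Dsp encodes desmoplakin, which links the desmosomal plaque to the intermediate filament desmin (chromosome 13, 38151294 to 38198577), and its promoter is shown above. It had 173 FPKM in the heart given probucol and 123 FPKM in the untreated heart, a log2 ratio of 0.50. At 10905 estimated fragments with probucol and 8621 without, the counting interval was narrow, 1.37 to 1.45, and 91.6% of measured genes had a lower ratio. Dsp made up 52.5% of the FPKM of the 5 desmosome members with probucol and 46.7% without. GENCODE places exons of other genes on the opposite strand over a part of Dsp (Gm10129) and of Dsg2 (Gm16090), and reads of such partners cannot be told apart unless strand was used.

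The 2 armadillo proteins of the plaque differed by less. Pkp2 encodes plakophilin 2, which gathers desmoplakin at the plaque (chromosome 16, 16213345 to 16272712), and had 79.8 FPKM with probucol and 71.7 FPKM without. Its log2 ratio was 0.15, and the counting interval was 1.03 to 1.20. Jup encodes plakoglobin, a catenin shared by desmosomes and adherens junctions (chromosome 11, 100368856 to 100397839), and had 42.7 FPKM with probucol and 38.8 FPKM without. Its counting interval, 0.999 to 1.21, just includes 1. The pair kept a like proportion, with Pkp2 at 1.87 times the FPKM of Jup with probucol and 1.85 times without. Dsp stood at 2.17 times the FPKM of Pkp2 with probucol and 1.71 times without.

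Desmoglein 2 and desmocollin 2, from Dsg2 and Dsc2, are the desmosomal cadherins of heart muscle, which bridge the gap between cells. Dsg2 (chromosome 18, 20558074 to 20604526) had 22.4 FPKM with probucol and 18.6 FPKM without, a log2 ratio of 0.27 with a counting interval of 1.09 to 1.33. Dsc2 (chromosome 18, 20030633 to 20059554) had 12.1 FPKM with probucol and 11.2 FPKM without, a log2 ratio of 0.10 with a counting interval of 0.928 to 1.25. The interval of Dsc2 includes 1, that of Dsg2 does not, and whether the 2 ratios differ was not tested. Both sit in a cluster of desmosomal cadherin genes on chromosome 18. Of the other genes of the cluster Dsc3, Dsc1, Dsg1c, Dsg1a and Dsg1b were listed at 0 in both libraries. Dsg4 and Dsg3, between these and Dsg2, were listed at 0 with probucol and at 0.0409 and 0.0343 FPKM without. Of the 9 genes of the cluster, Dsg2 and Dsc2 were thus the 2 with a level above the filter. Cdh2 lies on the same chromosome, outside the cluster.

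Cdh2 encodes N-cadherin, the adhesion molecule of the adherens junction in heart muscle (chromosome 18, 16588877 to 16809246). It had 81.0 FPKM in the heart given probucol and 68.0 FPKM in the untreated heart, a log2 ratio of 0.25, with a counting interval of 1.13 to 1.26. Ctnna3 encodes alpha-T-catenin, which binds plakophilin 2 and ties the area composita to actin (chromosome 10, 63430098 to 65003667). It had 8.45 FPKM with probucol and 9.10 FPKM without, a log2 ratio of -0.10. Its RefSeq-linked transcripts of 2688 to 3682 bases give 140 to 197 fragments with probucol and 169 to 236 without. At the smaller numbers the counting interval was 0.733 to 1.16, and a difference was not detectable at this depth. The 2 members thus stood at a different proportion, with 9.58 times as much Cdh2 as Ctnna3 in FPKM with probucol and 7.47 times without.

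**Figure D3:**
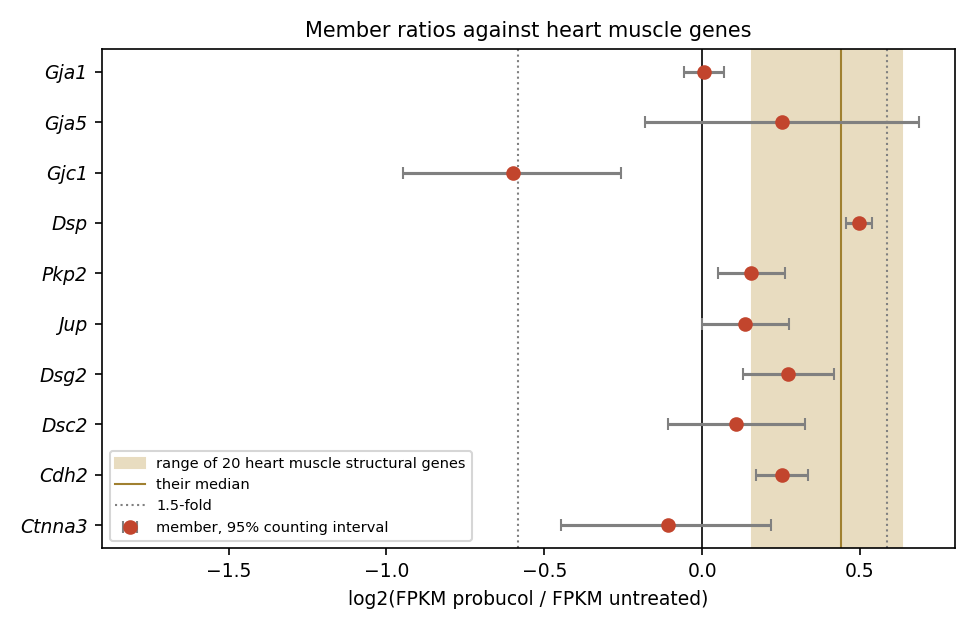
Each point is the log2 of the plain FPKM ratio of a member, probucol over untreated, and each bar its 95% counting interval from the smallest fragment estimate. The shaded band spans the ratios of 20 structural genes of heart muscle, the vertical line in it is their median and the dotted lines are 1.5-fold. Dsp lies to the right of that median and the other 9 members to its left (10.6% of measured genes lie to the right of it), and Gjc1, without a pseudocount, lies just past 1.5-fold.

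Set against the structural genes of heart muscle, the members stood much as genes in general did. All 20 heart muscle structural genes had log2 ratios above 0, from 0.16 for Tcap to 0.63 for Ckm, with a median of 0.44. Of the 10 members 4 lay within that range, Gja5, Dsp, Dsg2 and Cdh2, and 6 lay below it, Gja1, Gjc1, Pkp2, Jup, Dsc2 and Ctnna3. The highest of these 6 was Pkp2, and 66.8% of all measured genes had a lower ratio than it, so most genes lay below the range too. Dsp was the 1 member of 10 above the median of the list, where 10.6% of all measured genes lay above it, so the count is that of the background. Set against 100000 FPKM of the summed list, Gja1 had 160 FPKM with probucol and 215 FPKM without. On the same scale Dsp had 135 FPKM with probucol and 129 FPKM without, and Gjc1 had 7.83 FPKM with probucol and 16.0 FPKM without. The direction of most members therefore depends on what the level is set against: above 0 were 8 members on the deposited scale, beside 50.9% of measured genes, and 1 when centred on the list, beside 10.6%. The members are not confined to heart muscle cells, and the part of other cell types in these values was not tested. Over 6 macrophage markers the sum was 718 FPKM with probucol and 2498 FPKM without, and over 8 endothelial markers 346 FPKM with probucol and 340 FPKM without. None of the 6 macrophage or 8 endothelial markers was at 0 in either library.

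Related junction and disc genes lay mostly above 0 too on the deposited scale. Lists of further connexins, pannexins, desmosomal proteins, catenins, cadherins, disc scaffold proteins and disc channels held 75 genes with a value, of which 42 passed the filter. Of these 30 had log2 ratios above 0, beside 50.9% of all measured genes, and the median was 0.18. Past the 1.5-fold limit were 5 upward and 0 downward, beside 5.52% and 12.0% of all measured genes. Disc scaffold genes had a median of 0.32, or -0.12 when centred on heart muscle structural genes, with 18 of 23 above 0, and 2 past 1.5-fold. These were Myzap, a disc protein that binds zonula occludens 1 in mouse heart, with 380 FPKM with probucol and 231 FPKM without, and Ank3, which encodes ankyrin G, the anchor of sodium channels at the disc, with 8.79 FPKM with probucol and 5.66 FPKM without. Ank2 (log2 ratio 0.51) and Bves (0.50) followed. Des, the intermediate filament that desmoplakin holds, had 780 FPKM with probucol and 594 FPKM without.

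Some partners of the members were closer to level than others. Tjp1, which encodes zonula occludens 1 and binds connexin 43, had 17.3 FPKM with probucol and 14.8 FPKM without. Vcl, the actin binding protein vinculin, had 37.6 FPKM with probucol and 33.8 FPKM without. Scn4b, a beta subunit of sodium channels, had 2.89 FPKM with probucol and 1.49 FPKM without, a log2 ratio of 0.77 on 92 fragments with probucol and 53 without. Fgf13, which binds sodium channels, had a log2 ratio of 0.42.

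Widely expressed catenins were nearly level between the libraries on the deposited scale, as Gja1 was. Ctnna1, the alpha-catenin of most tissues, had 212 FPKM with probucol and 211 FPKM without, and Ctnnb1, beta-catenin, had 192 FPKM with probucol and 194 FPKM without. Ctnna3 held 3.84% of the summed alpha-catenin FPKM with probucol and 4.13% without, so that Ctnna1 was by far the more abundant in both. Ctnnd1, which encodes p120 catenin, had a log2 ratio of -0.16. The 2 catenin relatives past 1.5-fold were Ctnnal1 (0.62) and Arvcf (0.60). Of 17 further connexins 2 passed the filter, Gja3 and Gja4, and 8 were listed at 0 in both libraries. Gja4, the connexin 37 of arterial endothelium, had 5.86 FPKM with probucol and 5.16 FPKM without, and its counting interval of 0.774 to 1.67 includes 1.

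**Figure D4:**
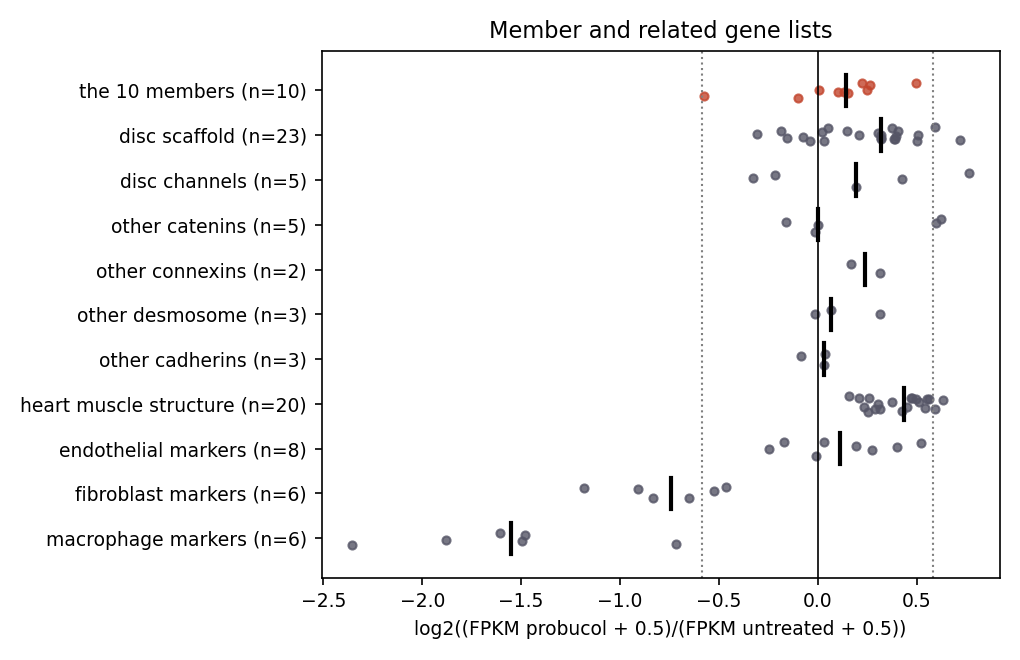
Each point is the log2 ratio of 1 measured gene, probucol over untreated with 0.5 FPKM added to both, in the list named at the left, and each short black line is the median of the list (dotted lines, 1.5-fold). The 10 members have a median of 0.14, disc scaffold genes 0.32, heart muscle structural genes 0.44, fibroblast markers -0.74 and macrophage markers -1.55.

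**Figure D5:**
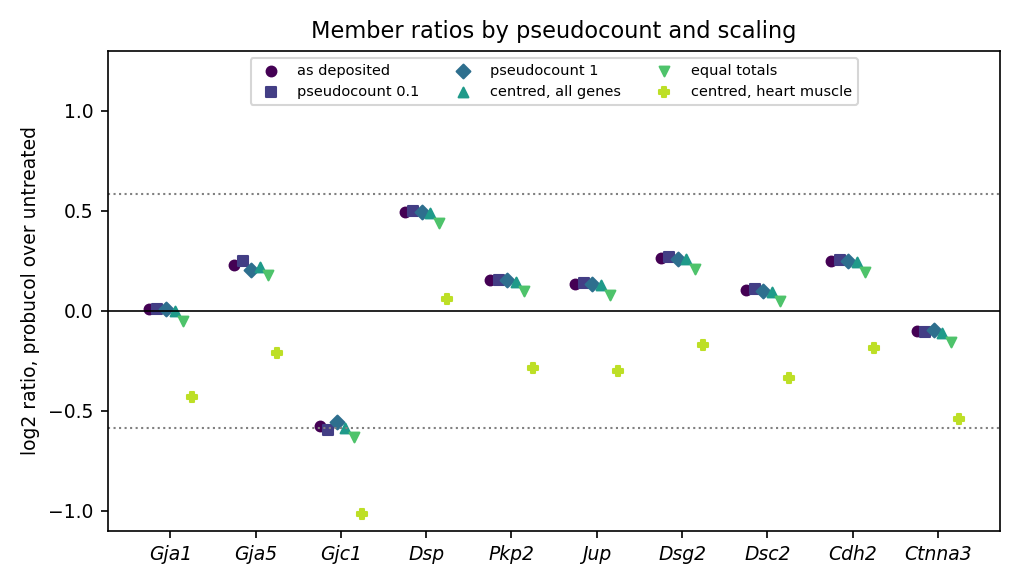
The log2 ratio of each member, probucol over untreated, on the deposited scale and under 5 other choices of pseudocount or scaling (dotted lines, 1.5-fold). Gjc1 crosses the lower 1.5-fold line under 3 of the 5 choices, where 13.1% to 34.0% of all measured genes lie past it. Centring on heart muscle structural genes puts 9 of 10 members below 0 and leaves 10.6% of all measured genes above 0.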

How the data were processed

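Per the file headers, the authors deposited 1 FPKM value per gene symbol and library. TopHat2 2.1.1, Bowtie2, Cuffdiff 2.2.1 and build mm10 are listed per the submitters' processing notes. The annotation, the scaling between libraries and the use of strand are not stated in the labels or headers used. Per the labels' protocols, libraries were made with a stranded mRNA kit. FPKM is relative, and values were not rescaled. Log2 ratios used a pseudocount of 0.5 FPKM, and genes with a mean of at least 0.5 FPKM (12882 of 24346) served as background. With 1 library per group no test was made, and 1.5-fold was the limit for counts. Fragments were estimated from FPKM steps in genes with 1 transcript, with 210 bases subtracted from GENCODE M21 transcript lengths. Within 0.05 fragments, 68.8% of 1052 low values with probucol and 70.2% of 989 without came out whole, so estimates are approximate. Members, lists and limits were chosen with earlier results of these data known. All members were named, and of each related list up to 4 genes with the largest log2 ratio in either direction plus a fixed set of partners; genes of the cell marker lists and of the chromosome 18 cluster were named after their values were seen. Some genes that the rule takes in are left out of the text. Pseudocount, filter and scaling were varied. The ratio procedure was tested on simulated data. Python 3.11.15, numpy 2.4.6, pandas 2.3.3, scipy 1.17.1 and matplotlib 3.10.9 were used.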

Additional observations from a re-analysis of the deposited data

How the results depend on the processing

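The median log2 ratio of the 10 members stayed between 0.09 and 0.15 under every alternative but 1. Centred on heart muscle structural genes, which shifts the median of all genes to -0.43, it was -0.29. The log2 ratio of the summed FPKM of the 10 members, which is not a median, was 0.18. The number of members at least 1.5-fold higher was 0 under all alternatives. The number at least 1.5-fold lower was 1 rather than 0, always Gjc1, under 3 alternatives. These were a pseudocount of 0.1, equal FPKM totals without the 100 most abundant genes, and that centring. Of all measured genes 13.9%, 13.1% and 34.0% were at least 1.5-fold lower under these, so 1 of 10 members does not exceed the background. Gja1 lay at 0.01 on the deposited scale and between -0.43 and 0.01 over the alternatives, and Dsp stayed above 0 in each, between 0.06 and 0.50. Leaving out Gjc1 and Dsp, summing FPKM and restricting the centring to protein-coding genes were chosen after seeing the data. No paired analysis was possible because each group has 1 library. Without a filter, 3.64% of all genes were at least 1.5-fold higher and 7.46% at least 1.5-fold lower. Depth limits Gja5, Gjc1 and Ctnna3 most among the members.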

Other observations

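Beyond the members, Gja3, which encodes connexin 46 and is best known from the lens, had 10.2 FPKM with probucol, beside 10.03 FPKM of Gjc1. These levels are close, on 175 estimated fragments for Gja3 and 113 to 141 for Gjc1, and their order was not tested. In the untreated library Gja3 had 8.11 FPKM and was the third most abundant connexin. Gja3 stood above Gja5 in both libraries, and its 175 estimated fragments with probucol and 155 without give a counting interval of 1.01 to 1.57. No annotated exon of another gene overlaps it in GENCODE. Panx1, a channel protein related in shape to connexins that releases ATP, had 2.64 FPKM with probucol and 3.80 FPKM without, with a counting interval of 0.535 to 0.902. Perp, a membrane protein of desmosomes in epithelia, had 106 FPKM with probucol and 107 FPKM without, above every desmosome member but Dsp. Of the epithelial keratins, Krt5 and Krt14 were listed at 0 in both libraries. Krt8, Krt18 and Krt19 were above 0 in both and lower with probucol, at most 1.46 FPKM (Krt18 without probucol). The part of epithelial cells in the level of Perp was not tested. Pkp4, a plakophilin relative of adherens junctions, had 42.4 FPKM with probucol and 34.0 FPKM without.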
